A study of Homo sapiens with 8 samples.

Results

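The extracellular matrix genes described here encode collagens, laminins and thrombospondins, the integrins that bind them, and the proteases and protease inhibitors that remodel them. They were picked by symbol from the deposited table: every entry named as a fibrillar or other collagen chain, a laminin chain, an integrin alpha or beta chain, a thrombospondin, a matrix metalloproteinase (MMP), an ADAM protease or a tissue inhibitor of metalloproteinases (TIMP), together with FSTL1, QKI and PARVB, which were named individually. Of 9245 entries, 35 met this choice: 7 collagens, 5 laminins, 9 integrins, 2 thrombospondins, 2 MMPs, 5 ADAM proteases, 2 TIMPs and the 3 named genes. The RefSeq annotation holds 154 protein-coding symbols that meet it, and the other 119 were not analysed here.

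The study compared mRNA levels in SK-BR-3, a human breast cancer cell line, after removal of mir-141, mir-200c or both with TALENs, nucleases whose DNA-binding part can be built for a given site. All 8 libraries were SK-BR-3 cells, and they fell into 4 groups: cells with mir-141 and mir-200c both knocked out (clone 55 in set 1 and clone 61 in set 2), mir-200c knockout (clones 11 and 29), mir-141 knockout (clones 23 and 10) and wild type (1 library in each set). Each knockout library was a different clone, so the genotype and the clone cannot be told apart within a set. Each deposited value is the log2 ratio between a clone and the wild type library of its own set, so wild type is 0 by construction and a value of 1 is a 2-fold higher level.

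Cells hold on to the matrix through integrins, pairs of an alpha and a beta chain whose inner ends recruit actin-binding adaptors such as parvins. Laminins and collagens of the basement membrane are the substrate of epithelial cells, and a switch to a more mesenchymal set of matrix genes is a known part of the epithelial-mesenchymal transition. The mir-200 family, to which both microRNAs belong, is known for holding that transition back in epithelial cells by repressing ZEB transcription factors and other targets, among them the RNA-binding protein QKI. A microRNA recognises its targets mainly through its seed, bases 2 to 8, which pairs with a short site in the 3′ UTR of the mRNA.

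The mature sequences (RefSeq, GRCh38.p14) are shown because the seeds, in capitals, decide which of the matrix genes carry a site. They lie at chr12:6964155-6964176 and chr12:6963742-6963764 on the plus strand, and the seeds differ by C4U, counted from the 5′ end with the mir-141 base first.
miR-141-3p: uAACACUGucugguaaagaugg
miR-200c-3p: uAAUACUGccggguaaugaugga

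Sites were searched on the transcript strand of the longest annotated 3′ UTR of each gene (GENCODE 29, GRCh38), as CAGTATTA, or all of it but the first or the last base, for mir-200c, and in the same way as CAGTGTTA for mir-141. A site for mir-200c was present in 9 of the 35 genes (25.7%), against 24.1% of 9207 entries with a 3′ UTR, and a site for mir-141 in 7 (20.0%), against 26.0%. QKI carried 4 sites for each microRNA, ITGAV carried 3 for each, TIMP2 and FSTL1 carried 2 for mir-200c, and THBS1 and PARVB carried 1 for each. COL5A2, COL9A2 and ITGA2 carried 1 for mir-200c, ITGB6 and LAMA3 carried 1 for mir-141, and ADAM10 carried 2 for mir-141. Not all of these sites are printed below. The entry of a gene with several isoforms may have another 3′ UTR than the longest. The sites below, in capitals within their flanks and read 5′ to 3′ along the mRNA, belong to genes whose values are described next.
QKI, mir-200c (chr6:163573223-163573251, plus strand): gccttggttctCAGTATTAtcattcttta
QKI, mir-200c (chr6:163573291-163573319, plus strand): tttttttctgaCAGTATTAtgtaattttt
TIMP2, mir-200c (chr17:78852977-78853005, minus strand): tggacaataaaCAGTATTAtcaaagagaa
THBS1, mir-200c (chr15:39598850-39598878, plus strand): agaaaagcctcCAGTATTAagctcctgaa
FSTL1, mir-200c (chr3:120396840-120396867, minus strand): cgccaaatcacCAGTATTtgcttatata
LAMA3, mir-141 (chr18:23956083-23956111, plus strand): ttctgggtcccCAGTGTTAacctcactga
ITGB6, mir-141 (chr2:160101171-160101198, minus strand): gttgaaagttaAGTGTTAataatttttg
COL5A2, mir-200c (chr2:189032270-189032297, minus strand): aatgtcagagtAGTATTAttgataaaaa
PARVB, mir-141 (chr22:44172562-44172590, plus strand): tgacgcccacaCAGTGTTAtgcaagcacc

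Depth and expression levels cannot be read from ratios, so weakly and strongly expressed genes carry the same weight and no detection limit can be given. In bulk libraries, fewer cells with a transcript and less of it per cell cannot be told apart. Across all genes, the 9 correlations between a clone of set 1 and a clone of set 2 lay between -0.0022 and 0.0105, and over the 35 matrix genes they lay between -0.088 and 0.295. Clones of the same set share 1 wild type library, which enters each of their ratios. Across all genes, their correlations lay between 0.50 and 0.71 in set 1 and between 0.51 and 0.70 in set 2. Whether the rows of set 2 stand beside the right gene names was not tested, so set 2 values are given as listed, and results are given from set 1 first and then with set 2. Of 12 luminal epithelial markers, 11 were measured, and their set 1 ratios ran from -0.24 to 0.27 in the double knockout, from -0.14 to 0.31 after loss of mir-200c alone and from -0.18 to 0.37 after loss of mir-141 alone. Only 3 of 11 fibroblast markers were measured (COL1A1, COL5A1 and COL5A2, which are themselves among the 35), 2 of 6 endothelial markers and 3 of 6 blood cell markers.

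**Figure D1:**
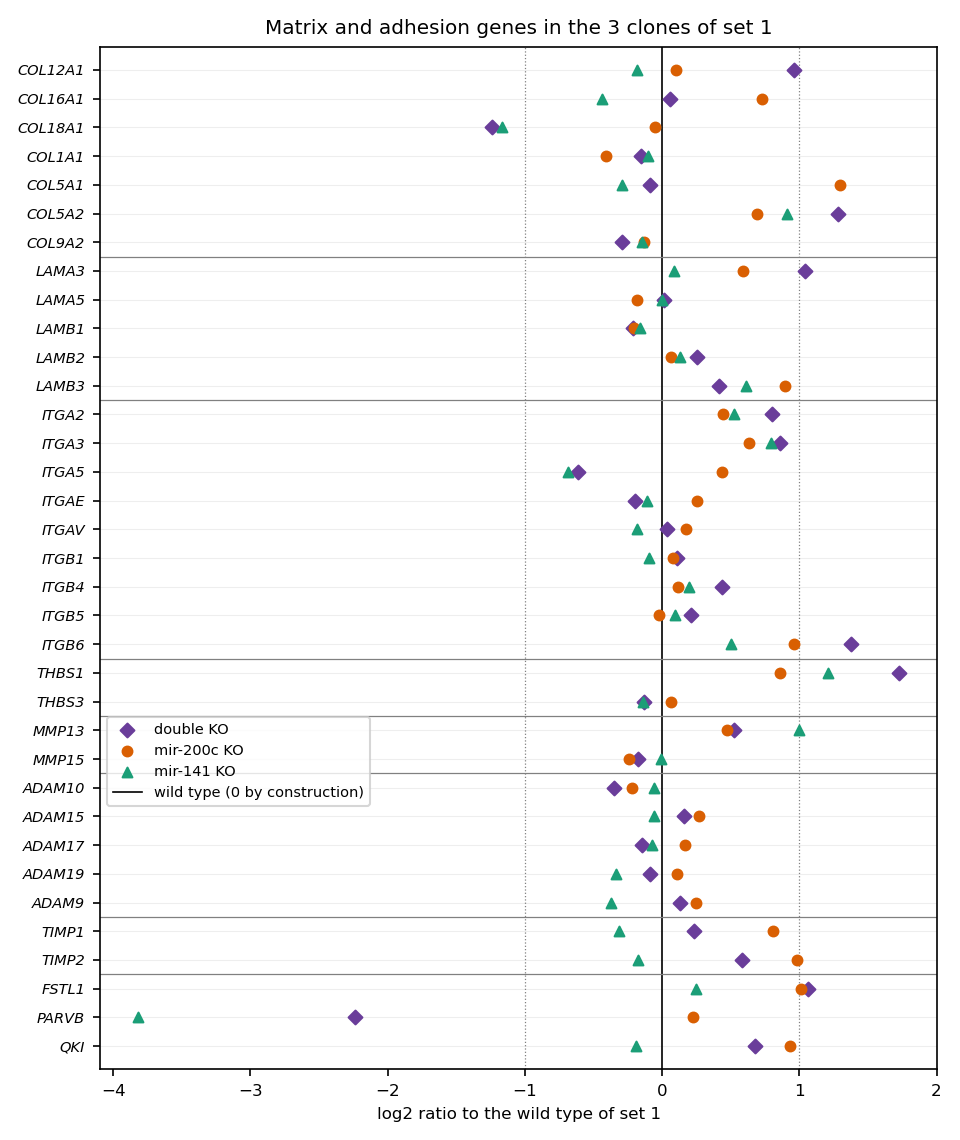
Log2 ratios of the 35 genes to the wild type of set 1 (x axis), with 1 row per gene grouped by family and 1 symbol per clone: double knockout, mir-200c knockout and mir-141 knockout. Dotted lines mark a ratio of 1 and -1. Most symbols of the mir-200c knockout lie right of 0 (27 of 35, against 48.0% of all genes). In the double and mir-141 knockout 22 and 13 of 35 do (46.3% and 48.1% of all genes). PARVB lies far left in both clones that lack mir-141.

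Loss of mir-200c in set 1 can be read in 2 backgrounds from 4 different libraries: as the mir-200c knockout against wild type, where mir-141 is intact, and as the double knockout against the mir-141 knockout, where it is absent. ITGB6, QKI, FSTL1, TIMP2 and LAMA3 were higher by more than 1.5-fold in both backgrounds, that is 5 of 35 genes against 1.31% of all genes, and 0 of 35 were lower by as much in both (0.379% of all genes). QKI and FSTL1 were named individually with their set 1 values known, and without the 3 named genes the counts were 3 higher and 0 lower of 32. The gene families were also chosen with earlier results of these data known. The counts here and below, with or without the named genes, are therefore descriptions only. The mean of both backgrounds had a median of 0.24 over the 35 genes and -0.02 over all genes. An additive limma model of both losses, fitted to all genes of set 1 with 1 residual degree of freedom, gives the shifts below with their SE, which rests on departure from additivity, moderated across genes, and not on the spread between clones of a genotype. It called 0 genes at an adjusted p under 0.05 (0.00% of all genes, smallest adjusted p 0.326). At an unadjusted p under 0.05 it had 13 of the 35 genes higher and 0 lower, against 6.48% of all genes higher and 5.56% lower. Without the 3 individually named genes, 10 of 32 were higher and 0 lower, with a median of 0.19.

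Libraries without mir-200c were all higher than libraries with it for 12 of the 35 genes (21.1% of all genes) and all lower for 4, namely ADAM10, COL1A1, LAMB1 and MMP15 (26.2% of all genes). For 19 genes the libraries overlapped. The difference had the same sign in both backgrounds for 23 genes upward and 6 downward, against 28.9% and 34.1% of all genes. Set 2 as listed had 0 genes past 1.5-fold in both backgrounds in either direction (1.16% of all genes above and 0.530% below). There the libraries without mir-200c were all higher for 7 of the 35 genes (18.4% of all genes) and all lower for 10 (21.0%).

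Collagens differed from each other. COL5A1, a chain of the fibril-regulating collagen V, had 1.29 in the mir-200c knockout of set 1 but -0.09 in the double knockout, against -0.29 in the mir-141 knockout and 0 in the wild type. Its partner chain COL5A2 had 0.69 and 1.28 in the mir-200c and double knockout, against 0.91 in the mir-141 knockout and 0 in the wild type. The pair therefore differed: COL5A1 was high in the mir-200c knockout alone, and COL5A2 was high in all 3 clones. COL12A1, a fibril-associated collagen, had 0.96 in the double knockout, against 0.10, -0.18 and 0 in the mir-200c knockout, the mir-141 knockout and the wild type. COL16A1, of the same fibril-associated class, had 0.06 and 0.73 in the double and mir-200c knockout, against -0.44 in the mir-141 knockout and 0 in the wild type, a shift of 0.61 ± 0.14 (limma, adjusted p = 0.363). COL1A1, a chain of the main fibrillar collagen of stroma, had -0.15, -0.41 and -0.11 in the double, mir-200c and mir-141 knockout and stood below wild type in each, and COL9A2 of the fibril-associated class had -0.29, -0.13 and -0.15. Set 2 listed COL5A1 at 0.04, -0.10 and -0.01 and COL5A2 at 0.03, 0.10 and -0.05 in the double, mir-200c and mir-141 knockout, and the 7 collagens lay between -0.26 and 0.51 there.

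Among laminins, LAMA3 and LAMB3 are chains of the hemidesmosomal laminin, and LAMA5, LAMB1 and LAMB2 belong to other basement membrane laminins. LAMA3 had 1.04 and 0.59 in the double and mir-200c knockout, against 0.09 in the mir-141 knockout and 0 in the wild type, with no overlap and a shift of 0.78 ± 0.15 for loss of mir-200c (limma, adjusted p = 0.335). LAMB3 had 0.41 and 0.89 in the double and mir-200c knockout, against 0.61 in the mir-141 knockout and 0 in the wild type, so its groups overlapped, and the shift was 0.35 ± 0.28. LAMB1 had -0.21, -0.21 and -0.16 in the double, mir-200c and mir-141 knockout, and LAMA5 and LAMB2 lay between -0.18 and 0.25 in the 3 clones. Set 2 listed LAMA3 at 0.05, 0.08 and 0.13 and LAMB3 at 0.09, 0.00 and 0.36 in the double, mir-200c and mir-141 knockout.

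Among matrix receptors, ITGB6, the beta chain that pairs with ITGAV to form an epithelial receptor activating latent TGF-beta, showed the largest mean shift with loss of mir-200c among the 35 genes. ITGB6 (chromosome 2, 160099666 to 160200313, GRCh38) had log2 ratios of 1.38 in the double and 0.96 in the mir-200c knockout of set 1, against 0.50 in the mir-141 knockout and 0 in the wild type. The clones without mir-200c lay above both libraries that keep it, by 0.92 ± 0.13 on average (SE of the additive fit, limma adjusted p = 0.326). In set 2 ITGB6 was listed at 0.34 and 0.47 in the double and mir-200c knockout, against -0.01 in the mir-141 knockout and 0 in the wild type, so the groups were again separate. In set 2 such a separation upward was present for 18.4% of all genes. ADAM15 was likewise all higher in both sets, and ADAM10 and COL1A1 were all lower in both. FSTL1 and TIMP1 went from all higher in set 1 to all lower in set 2. Over both sets the shift of ITGB6 was 0.67 ± 0.16 (limma, adjusted p = 0.541). Its partner ITGAV had 0.04, 0.18 and -0.18 in the double, mir-200c and mir-141 knockout of set 1, a shift of 0.20 ± 0.13 for loss of mir-200c. The other beta chains had smaller shifts in set 1: ITGB1, the common partner of collagen, laminin and fibronectin receptors, had a shift of 0.14 ± 0.13, ITGB4 of the hemidesmosome 0.18 ± 0.13, and ITGB5 0.04 ± 0.13.

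Of the alpha chains, ITGA2, the collagen-binding partner of ITGB1, had 0.80 and 0.45 in the double and mir-200c knockout of set 1, against 0.52 in the mir-141 knockout and 0 in the wild type. Its values were higher than wild type in all 3 clones, and the mir-200c knockout lay below the mir-141 knockout, so the groups overlapped. ITGA3, which forms a laminin receptor with ITGB1, had 0.86, 0.63 and 0.79 in the same clones and likewise stood above wild type in each of them, with overlap between the groups. The shift with loss of mir-200c was 0.36 ± 0.13 for ITGA2 and 0.35 ± 0.18 for ITGA3. Set 2 listed ITGA2 at 0.37, 0.20 and -0.60 in the double, mir-200c and mir-141 knockout, and ITGA3 at -0.18, -0.04 and -0.27.

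**Figure D2:**
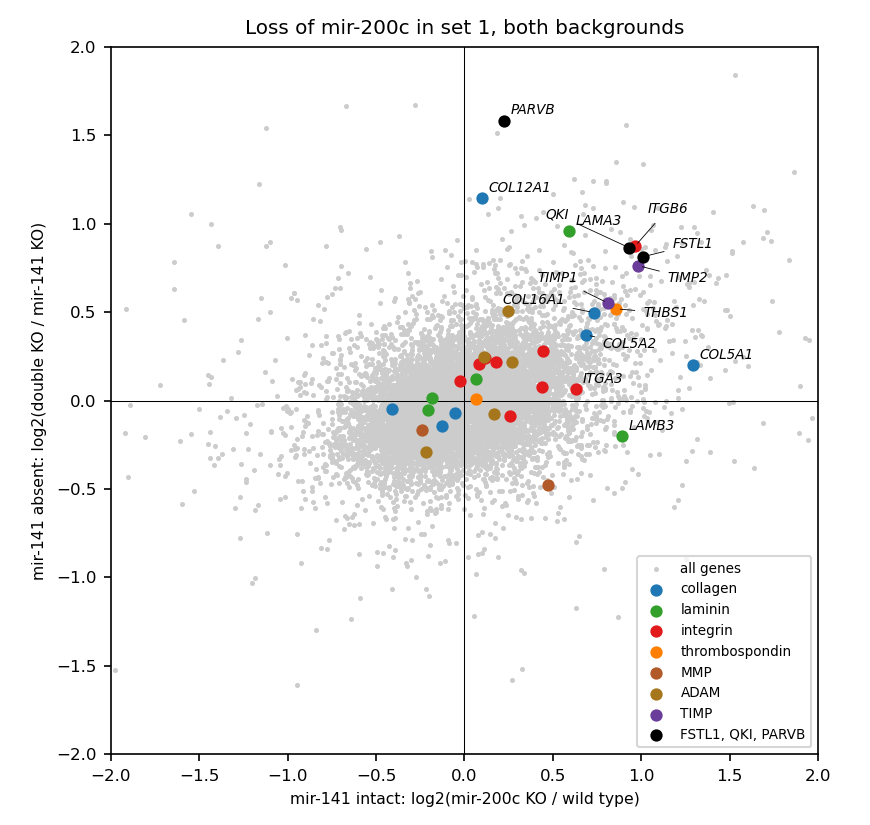
Loss of mir-200c in set 1 where mir-141 is intact (x axis, log2 ratio of mir-200c knockout to wild type) and where it is absent (y axis, log2 ratio of double to mir-141 knockout), for all genes in grey and the 35 matrix genes by family. ITGB6, QKI, FSTL1, TIMP2 and LAMA3 lie above 1.5-fold on both axes, COL5A1 and LAMB3 are high on the x axis only, and 35 genes outside this set lie beyond the axes.

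The ADAM proteases, membrane-anchored sheddases, stayed within 0.38 of wild type in every clone of set 1. ADAM9 had 0.13 and 0.25 in the double and mir-200c knockout, against -0.38 in the mir-141 knockout and 0 in the wild type, a shift of 0.38 ± 0.14 for loss of mir-200c (limma, adjusted p = 0.414). ADAM10, the sheddase of Notch and cadherins, had -0.35 and -0.22 in the double and mir-200c knockout, against -0.06 in the mir-141 knockout and 0 in the wild type, a shift of -0.25 ± 0.13 (limma, adjusted p = 0.462). ADAM15, ADAM17 and ADAM19 had shifts of 0.24, 0.05 and 0.18. Set 2 listed ADAM9 at 0.44, -0.06 and 0.32 and ADAM10 at -0.08, -0.19 and 0.03 in the double, mir-200c and mir-141 knockout.

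Both measured TIMPs, secreted inhibitors of matrix metalloproteinases, were higher without mir-200c in set 1. TIMP2 (chromosome 17) had 0.58 and 0.98 in the double and mir-200c knockout, against -0.18 in the mir-141 knockout and 0 in the wild type, a shift of 0.87 ± 0.14 (limma, adjusted p = 0.335). TIMP1 (X chromosome) had 0.23 and 0.81 in the double and mir-200c knockout, against -0.32 in the mir-141 knockout and 0 in the wild type, a shift of 0.68 ± 0.14 (limma, adjusted p = 0.342). In both genes the libraries without mir-200c lay above the libraries that keep it, and the double knockout lay below the mir-200c knockout. Set 2 listed TIMP2 at 0.01, -0.22 and -0.09 in the double, mir-200c and mir-141 knockout, and TIMP1 at -0.32, -0.13 and -0.11. Of the MMPs that TIMPs inhibit, the collagenase MMP13 had 0.52, 0.47 and 1.00 (just under 1) in the double, mir-200c and mir-141 knockout of set 1, above wild type in each. MMP15, a membrane-anchored protease, had -0.18, -0.24 and -0.01 there. Set 2 listed MMP13 at -0.45, -0.38 and -0.35 in these clones, below wild type in each.

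The RNA-binding protein QKI and the secreted glycoprotein FSTL1 (follistatin-like) were named individually, with their set 1 values known. QKI (chromosome 6) had 0.67 and 0.93 in the double and mir-200c knockout of set 1, against -0.19 in the mir-141 knockout and 0 in the wild type, and FSTL1 (chromosome 3) had 1.06 and 1.01 in the double and mir-200c knockout, against 0.25 in the mir-141 knockout and 0 in the wild type. Both genes were high where mir-200c was absent, with no overlap, and the shifts were 0.90 ± 0.13 (limma, adjusted p = 0.326) and 0.91 ± 0.13 (limma, adjusted p = 0.335). Set 2 listed QKI at 0.10, 0.00 and 0.14 in the double, mir-200c and mir-141 knockout, and FSTL1 at -0.37, -0.07 and 0.42. The order of the groups in set 1 was thus not seen for either gene in set 2.

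Loss of mir-141 in set 1 was read in the same way, as the mir-141 knockout against wild type and as the double against the mir-200c knockout. PARVB, COL18A1 and ITGA5 were lower by more than 1.5-fold in both backgrounds (3 of 35 genes, against 0.433% of all genes), and THBS1 and COL5A2 were higher by as much (2 of 35, against 0.725%). PARVB was named individually with its set 1 values known, and without the 3 named genes the counts were 2 lower and 2 higher of 32. Those 32 belong to families that were also chosen with earlier results of these data known. The median of the mean shift was -0.08 over the 35 genes and 0.00 over all genes. Limma called 0 genes (0.00% of all genes, smallest adjusted p over all genes 0.0616 and over the 35 genes 0.312). At an unadjusted p under 0.05 it had 5 of the 35 genes higher and 6 lower, against 3.46% and 2.89% of all genes (6.35% in either direction), and without the 3 individually named genes 5 of 32 were higher and 5 lower. The libraries without mir-141 were all higher for 9 genes (14.1% of all genes) and all lower for 9 (15.0% of all genes), and for 17 they overlapped. Set 2 as listed had 0 genes past 1.5-fold in both backgrounds (0.930% of all genes above and 0.573% below), with 6 of the 35 genes all higher (16.5%) and 7 all lower (21.1%) without mir-141.

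**Figure D3:**
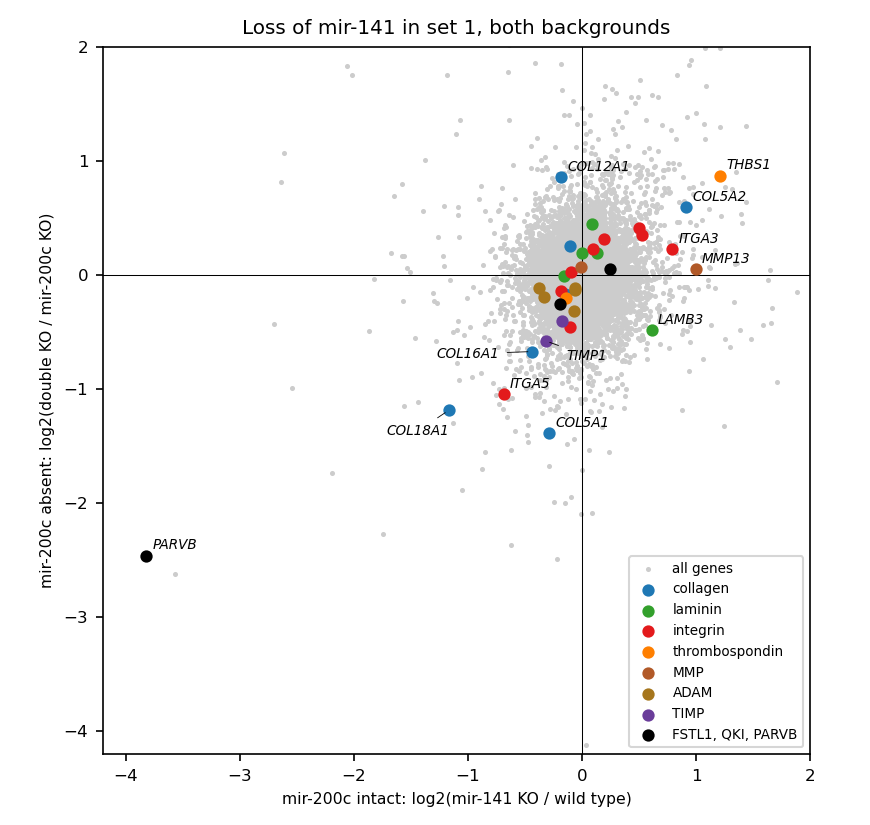
Loss of mir-141 in set 1 where mir-200c is intact (x axis, log2 ratio of mir-141 knockout to wild type) and where it is absent (y axis, log2 ratio of double to mir-200c knockout), for all genes in grey and the 35 matrix genes by family. PARVB, COL18A1 and ITGA5 are lower by more than 1.5-fold on both axes, THBS1 and COL5A2 higher by as much, and 21 genes outside this set lie beyond the axes.

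COL18A1, the basement membrane collagen from which endostatin is cut (chromosome 21, 45405137 to 45513720), had -1.24 and -1.17 in the double and mir-141 knockout of set 1, with the mir-200c knockout at -0.05 and wild type at 0. The values within each pair of libraries were close and the pairs did not overlap, with a shift of -1.18 ± 0.13 (limma, adjusted p = 0.312). Its measured neighbours POFUT2 and SLC19A1 had 0.18 and 0.16 in the double and 0.02 and -0.06 in the mir-141 knockout. SLC19A1 overlaps the end of COL18A1, and whether counting used the strand is not stated. ITGA5, the alpha chain of the main fibronectin receptor (chromosome 12), had -0.61 and -0.69 in the double and mir-141 knockout, with the mir-200c knockout at 0.44 and wild type at 0, a shift of -0.87 ± 0.15 (limma, adjusted p = 0.459). Set 2 listed COL18A1 at 0.23, 0.48 and 0.01 in the double, mir-141 and mir-200c knockout, above or near wild type. ITGA5 had -0.56, -0.17 and -0.43 there, below wild type in each clone. COL5A1, COL16A1 and TIMP1 were also lower without mir-141 in both backgrounds of set 1, with shifts of -0.84 ± 0.28, -0.55 ± 0.14 and -0.45 ± 0.14.

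THBS1, a matricellular protein that activates latent TGF-beta and inhibits angiogenesis, had the highest value of the 35 genes in the double and mir-141 knockout of set 1. THBS1 (chromosome 15, 39581079 to 39599466) had 1.73 and 1.21 in the double and mir-141 knockout of set 1, with the mir-200c knockout at 0.86 and wild type at 0. Every clone lay above wild type and the double knockout was highest, with shifts of 1.04 ± 0.15 for loss of mir-141 (limma, adjusted p = 0.448) and 0.69 ± 0.15 for loss of mir-200c (limma, adjusted p = 0.355). In set 2 THBS1 was listed at 0.39, 0.26 and 0.24 in the double, mir-141 and mir-200c knockout, in the same order and again above wild type in each. Its relative THBS3 had -0.13, -0.14 and 0.07 in the double, mir-141 and mir-200c knockout of set 1. With COL5A2 (a shift of 0.75 ± 0.15), ITGA3 (0.51 ± 0.18), ITGB6 (0.46 ± 0.13) and ITGA2 (0.44 ± 0.13), THBS1 made up the 5 genes that were highest for loss of mir-141 when ranked by the weaker background. The 3 clones of set 1 share 1 wild type library, which enters each of these ratios.

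PARVB, a parvin that links integrin-bound kinase complexes to actin, had the lowest value of the 35 genes in the double and mir-141 knockout of set 1. PARVB (chromosome 22, 43999211 to 44172949) had -2.24 and -3.82 in the double and mir-141 knockout of set 1, with the mir-200c knockout at 0.22 and wild type at 0. Both clones without mir-141 were far below both libraries that keep it, by -3.14 ± 0.34 on average (limma, adjusted p = 0.312). Its 3′ UTR carries the mir-141 site printed above and 1 site for mir-200c, and the part of either site in these values was not tested. The nearest measured neighbours on the chromosome, SAMM50 and LDOC1L, had -0.37 and -0.02 in the double, 0.01 and 0.04 in the mir-141 and -0.43 and -0.18 in the mir-200c knockout. Set 2 listed PARVB at 0.15, 0.01 and 0.03 in the double, mir-141 and mir-200c knockout. Its relative PARVA had 0.36, 0.08 and 0.48 in the double, mir-141 and mir-200c knockout of set 1.

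**Figure D4:**
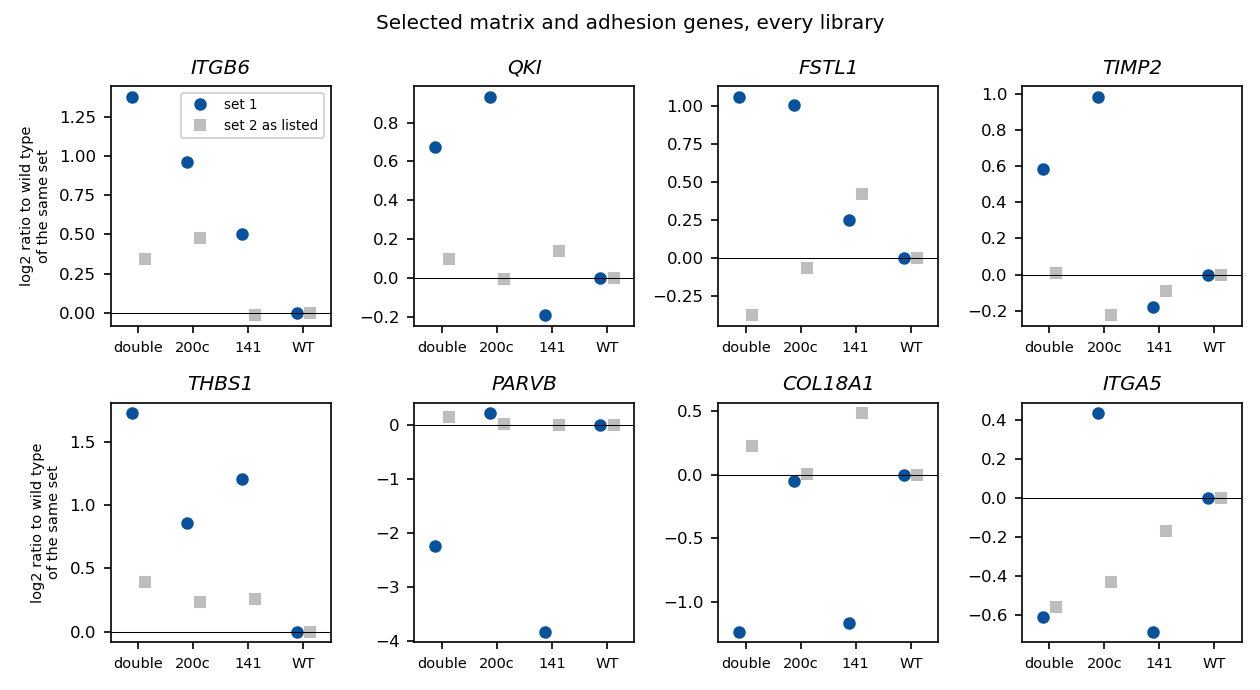
Log2 ratio to the matching wild type (y axes, each with its own scale) in the double, mir-200c and mir-141 knockout and the wild type (x axes), for set 1 in blue circles and set 2 as listed in grey squares. In set 1 ITGB6, QKI, FSTL1 and TIMP2 are high where mir-200c is absent, PARVB and COL18A1 are low where mir-141 is absent, and the set 2 values lie between -0.56 and 0.48.

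Counted clone by clone, 5 of the 35 genes were above 1 in the double knockout of set 1 (THBS1, ITGB6, COL5A2, FSTL1 and LAMA3), against 1.53% of all genes, and 2 were below -1 (PARVB and COL18A1), against 0.746%. In the mir-200c knockout 2 were above 1 (COL5A1 and FSTL1), against 1.70% of all genes, and 0 were below -1, against 1.06%. In the mir-141 knockout 1 was above 1 (THBS1), against 0.584% of all genes, and 2 were below -1 (PARVB and COL18A1), against 0.562%. Without FSTL1, QKI and PARVB, which were named with these values known, 4, 1 and 1 of 32 genes were above 1 in the double, mir-200c and mir-141 knockout, and 1, 0 and 1 were below -1. The medians over the 35 genes were 0.13, 0.25 and -0.09 in the double, mir-200c and mir-141 knockout, against -0.03, -0.02 and -0.01 over all genes. In set 2 as listed, 0 genes were above 1 in any clone (2.42%, 0.973% and 1.51% of all genes in the double, mir-200c and mir-141 knockout). MMP15 was the 1 gene below -1 there, at -1.31 in the mir-141 knockout (0.963% of all genes), and 0 genes were below -1 in the double (0.919%) and mir-200c knockout (0.800%). The medians in set 2 were -0.06, -0.06 and -0.01. Of the 7, 2 and 3 genes beyond 1 in the double, mir-200c and mir-141 knockout of set 1, 4, 0 and 1 had the same sign in set 2. No share of all genes stands beside these counts, and the correlations between the sets over all genes did not pass 0.0105.

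**Figure D5:**
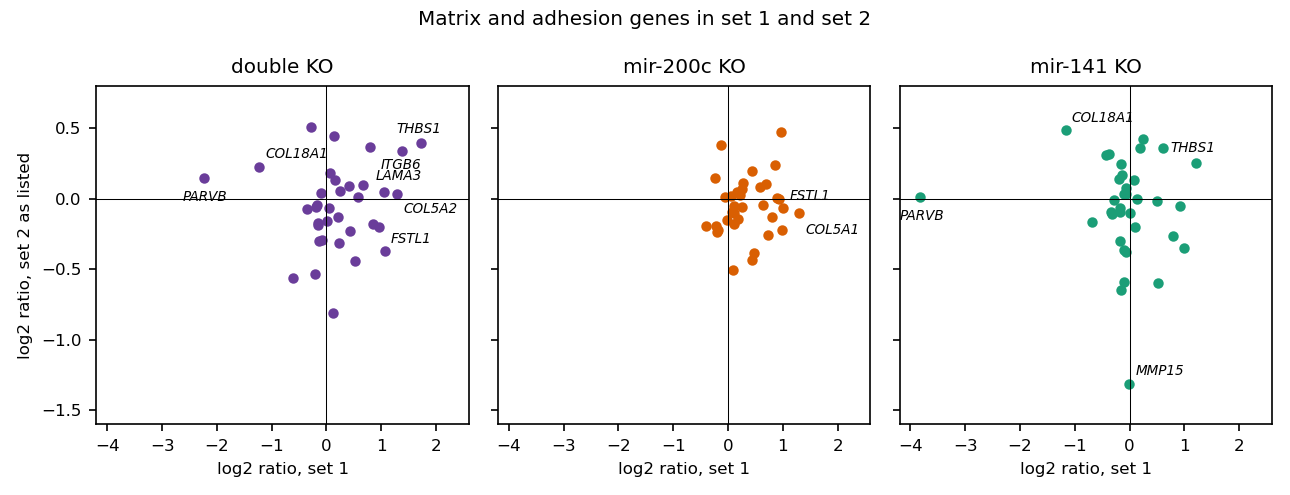
Log2 ratios of the 35 genes in set 1 (x axis) and set 2 as listed (y axis), with 1 panel each for the double, mir-200c and mir-141 knockout. Genes beyond 1 in either set are named, and only MMP15 in the mir-141 knockout passes 1 in size in set 2.

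Over both sets, with experimental set as a block, limma called 0 genes in the double knockout against wild type (0.00% of all genes, smallest adjusted p 0.740), the mir-200c knockout (0.00%, 0.793) and the mir-141 knockout (0.00%, 0.998). At an unadjusted p under 0.05, 2 of the 35 genes were higher in the double knockout (ITGB6 and THBS1, against 2.88% of all genes), 1 in the mir-200c knockout (ITGB6, against 2.51%) and 1 in the mir-141 knockout (THBS1, against 1.47%), and 0 were lower in each (3.41%, 2.89% and 1.21% of all genes). In either direction the shares of all genes were 6.28%, 5.40% and 2.68%. The means over both double knockout clones were 0.86 ± 0.24 for ITGB6 and 1.06 ± 0.30 for THBS1 (SE of the pooled fit, limma adjusted p = 0.740 for both). In the additive fit over both sets, 0 genes were called for either loss (0.00% for each). At an unadjusted p under 0.05, ITGB6 and ITGA2 were higher with loss of mir-200c (2 of 35, against 4.05% of all genes) and 0 were lower (4.84%), with 8.88% of all genes in either direction. For loss of mir-141, THBS1 was higher (1 of 35, against 2.63%), and ADAM17, PARVB, ITGAE and ITGA5 were lower (4 of 35, against 2.52%), with 5.15% of all genes in either direction. These counts changed with the libraries used. Fits with 1 library left out in turn leave a group with 1 library, so their counts among the 35 genes are not given. Without the wild type of set 2 and its clones, the additive fit is the set 1 fit, whose counts are given above. Without those of set 1 it rests on set 2 as listed. There the median shift of the 35 genes was -0.04 for loss of mir-200c and -0.02 for loss of mir-141. Over all genes these medians were -0.01 and -0.02. A term for departure from additivity, fitted over both sets, gave 0 called genes with 157 at an unadjusted p under 0.05, of which 0 were among the 35.

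The genes with a mir-200c site had higher values with its loss in set 1 than those without. The mean shift of the 9 genes with a site had a median of 0.69, from -0.14 (COL9A2) to 0.91 (FSTL1), and 8 of them were higher in both backgrounds. The 26 genes without a site had a median of 0.16, from -0.25 (ADAM10) to 0.92 (ITGB6), and 15 were higher in both. Without QKI, FSTL1 and PARVB, the 6 genes with a site had a median of 0.45. Across all entries the medians were 0.01 for 2223 with a site and -0.03 for 6984 without. For mir-141, the 7 genes with a site had a median shift of -0.10 with its loss and the 28 without one had -0.06, and without the 3 named genes the medians were 0.27 for 5 and -0.08 for 27. Leaving out the named genes, of which PARVB and QKI carry a mir-141 site, turned the sign of that difference. These are descriptions of 35 genes with no test.

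Lists of related genes, also chosen with earlier results of these data known, show where the wider adhesion machinery stood in set 1. Of 40 focal adhesion genes, 35 were measured, 0 were called by limma for either loss, and the libraries without mir-200c were all higher for 14 and all lower for 3 (21.1% and 26.2% of all genes). Their median shift with loss of mir-200c was 0.13, against -0.02 over all genes. Among them FLNA, the actin cross-linker that binds integrin tails, had 1.08 and 1.38 in the double and mir-200c knockout, against 0.37 in the mir-141 knockout and 0 in the wild type. Of 6 measured genes of hemidesmosomes and basal anchoring, 4 were all higher and 0 all lower without mir-200c (21.1% and 26.2% of all genes). The basal keratins KRT17 and KRT14 had 2.07 and 0.95 in the double and 2.20 and 1.00 in the mir-200c knockout, against 0.94 and 0.52 in the mir-141 knockout. Set 2 listed FLNA at -0.17, -0.70 and -0.06, KRT17 at -0.39, -0.29 and -0.27 and KRT14 at -0.25, -0.25 and -0.18 in the double, mir-200c and mir-141 knockout, below wild type in each.

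Of 42 further matrix genes, 17 were measured, with 0 called, 7 all higher and 1 all lower without mir-200c (21.1% and 26.2% of all genes) and a median shift of 0.09, against -0.02 over all genes. FN1, the fibronectin bound by ITGA5, had 1.12, 1.23 and 1.17 in the double, mir-200c and mir-141 knockout of set 1. These ratios were nearly the same in each clone, and they share 1 wild type library. CTGF, a matricellular protein, had 1.23 and 1.48 in the double and mir-200c knockout, against 0.52 in the mir-141 knockout and 0 in the wild type. SPOCK1, a secreted proteoglycan, had 1.27 and 0.96 in the double and mir-141 knockout, with the mir-200c knockout at -0.62 and wild type at 0, and EFEMP1, a fibulin, was low at -0.54, -1.05 and -0.12 in the double, mir-200c and mir-141 knockout. Set 2 listed FN1 at -0.84, -0.80 and -0.29 and CTGF at -0.89, -1.01 and -0.89 in these clones, below wild type in each. SPOCK1 was listed there at 0.37, 0.09 and 0.35, and EFEMP1 at -0.86, -0.88 and -0.66.

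Of 15 measured genes of collagen folding and cross-linking, 0 were called and 0 lay beyond 1 in any clone of set 1, with 7 all higher and 2 all lower without mir-200c and a median shift of 0.07, against 21.1%, 26.2% and -0.02 over all genes. Of 10 other matrix receptors, 0 were called, with 3 all higher and 2 all lower (21.1% and 26.2% of all genes). Of 10 matrix protease and inhibitor genes outside the chosen families, 0 were called, with 4 all higher and 1 all lower, beside the same shares of all genes. PLAUR, the receptor that localises urokinase to the cell surface, had 1.64 and 1.05 in the double and mir-200c knockout, against 0.93 in the mir-141 knockout and 0 in the wild type. Set 2 listed PLAUR at -0.15, 0.73 and 0.06 in these clones. In markers of other cell types, CDH5 of endothelium had 1.34, 0.73 and 0.10 and LCP1 of blood cells had -0.44, 1.05 and -0.13 in the double, mir-200c and mir-141 knockout of set 1, while ENG, CORO1A and CD68 lay between -0.54 and 0.52. The part of these markers in the values above was not tested.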

How the data were processed

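Poly(A) RNA was captured on oligo(dT) beads and sequenced on a HiSeq, per the labels' protocols. TopHat2 and GRCh37.p10 are named in the submitters' processing notes, and counting, scaling and filtering steps are not stated. The authors deposited log2 ratios of clones over wild type within a set, per the file headers, in 6 columns for 9245 entries, and 0 columns belonged to other samples. The planned design allowed for expression values or ratios, and with ratios each wild type was set to 0, which the set term or intercept absorbs. Linear models were fitted to all genes with limma 3.58.1 in R 4.3.3, with Benjamini-Hochberg adjustment. The set is named in the labels and the ratios are taken within it, so it pairs the libraries. P-values over both sets measure how far the clones of a genotype differ once the set is allowed for, moderated across genes. In the additive fit over both sets they also take in the departure from additivity. Those in set 1 measure the departure from additivity only, moderated across genes. In simulated data with 9245 genes, each library had independent noise with a spread taken from the set 1 additive fit. No further spread between clones of a genotype was added, so the recovery holds for that setting only. For loss of mir-200c in set 1, 33% of 100 genes raised by 1 and 94% of those raised by 2 were called. There were 8 false calls. Genes were described if beyond 1 in a clone of set 1, named individually, highest or lowest by the weaker background, or partners of such chains. ADAM proteases, MMPs and LAMB3 were among the 35 genes by symbol, but describing them singly was added after their values were seen. The members and lists were chosen with earlier results of these data known. Positions come from GENCODE 29 (GRCh38), to which 9226 entries matched, including the 35. Alternatives included median centring, robust moderation, other thresholds, leaving out libraries and the fit without the block.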

Additional observations from a re-analysis of the deposited data

How the results depend on the processing

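Ratios carry no depth, so no filter or weight by level could be tried, and pseudocounts do not apply. Calls over all genes stayed at 0 under median centring and robust moderation for each comparison. At an adjusted p under 0.1, 1 gene was called for loss of mir-141 in set 1, and it was none of the 35. With no replicate block, 0 genes were called in each comparison over both sets, and 0 of the 35 genes in place of 1 were at an unadjusted p under 0.05 in the mir-141 knockout. Leaving out a library in turn, with the lone clone of a group taken to vary like the others, gave 0 to 1 called genes in the mir-200c knockout, the 1 arising without either of its clones, and 0 in the other comparisons. Leaving out a wild type alone, an alternative chosen after seeing the data, gave 2, 1 and 1 called genes (double, mir-200c and mir-141 knockout) without the wild type of set 2 and 0 without that of set 1. Leaving out a wild type with its set left no degrees of freedom for these comparisons.

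At a threshold of 1.5-fold in place of 2-fold, the clones of set 1 had 9, 12 and 5 of the 35 genes above (double, mir-200c and mir-141 knockout), against 5.54%, 6.78% and 2.34% of all genes. In set 2, 1 and 4 genes were below in the double and mir-141 knockout, against 4.73% and 3.43%. After centring, 2 genes in place of 1 were above 1 in the mir-141 knockout of set 1, MMP13 joining THBS1. With set 2 as listed in place of set 1, libraries without mir-200c were all higher for 7 of the 35 genes (18.4% of all genes). They were all lower for 10 (21.0% of all genes). The 24 single-gene shifts followed were those at an unadjusted limma p under 0.05 in set 1. Under median centring, robust moderation and each background alone, 0 changed sign, but only centring could have changed one. Opposite signs in the 2 backgrounds would have kept a gene from being taken, and robust moderation leaves a shift unchanged. In set 2, 15 had the opposite sign and 9 the same, with no share of all genes to set beside this. For loss of mir-200c the reversed values were -0.19 for COL16A1, -0.024 for COL5A1, -0.43 for FSTL1, -0.0047 for LAMA3, -0.024 for QKI, -0.17 for TIMP1 and -0.061 for TIMP2. For loss of mir-141 they were 0.38 for COL16A1, 0.35 for COL18A1, 0.064 for COL5A1, -0.062 for COL5A2, -0.21 for ITGA2, -0.20 for ITGA3, -0.074 for ITGB6 and 0.066 for PARVB. The cause was not tested.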
